A study of Mus musculus with 30 samples.

Results

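T-box transcription factors share a DNA-binding domain, the T-box, and were followed here through 9 genes, *Tbx1*, *Tbx2*, *Tbx3*, *Tbx4*, *Tbx5*, *Tbx15*, *Tbx18*, *T* and *Eomes*. They were picked by gene symbol out of the 50833 genes of the count table, and all 9 were found there by identifier. The material was RNA of forelimb buds from wild-type mouse embryos on a Swiss Albino background, sequenced after polyA selection. Pregnant females received a single injection at embryonic day E10.5 of either DMSO, the solvent control, or Wnt-C59 (C59), a small molecule that blocks porcupine, the enzyme needed for secretion of WNT ligands. Forelimb buds were taken 1, 6, 12, 18 or 24 h later, which gave 10 groups of 3 libraries, 30 in all, with 18188636 to 38974885 counts each. Each library held the RNA of a single embryo's pair of forelimb buds. Since the drug was given to the mother, all tissues of the embryo were exposed, and the buds contain mesenchyme, ectoderm, vessels, blood and immigrating muscle cells together.

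In the limb bud *Tbx5* initiates forelimb outgrowth by activating *Fgf10*, and its relative *Tbx4* serves the hindlimb. *Tbx2* and *Tbx3* encode transcriptional repressors that act at the anterior and posterior limb bud margins and set digit number and identity. *Tbx15* and *Tbx18* form a pair of related repressors, known in limb mesenchyme for skeletal development. *T* (Brachyury), a known target of canonical WNT signaling in posterior mesoderm, and *Eomes* are best known for mesoderm formation in the gastrula, and *Tbx1* for pharyngeal arch and craniofacial muscle development.

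C59 lowered the repressor genes *Tbx2* and *Tbx3* and the mesodermal gene *T*, while 4 other T-box genes were higher than in controls at 12 h, the time with the most changes. The size of the changes differed widely. *T*, with at most 58 counts in a library, fell to 0.123 times its control level at 12 h, *Tbx2* to 0.609 times, and *Tbx5* and *Tbx15*, the genes with the highest levels, rose by 0.21 and 0.40 on the log2 scale. At that time *T* and *Eomes* passed the filter on low counts only through the group where each was higher. In whole buds, fewer cells expressing a gene and less RNA per cell cannot be told apart. At 24 h *Eomes* alone passed the test, after no difference had been called for it at 18 h.

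The genes lie on 6 chromosomes, and their positions below are those of GENCODE M21 (GRCm38), to which the start and end in the deposited table were equal for all 9. *Tbx2* (chr11:85832551-85841948, plus strand) and *Tbx4* (chr11:85886422-85916097, plus) are neighbours, 44.5 kb apart. So are *Tbx3* (chr5:119670669-119684724, plus) and *Tbx5* (chr5:119832668-119885219, plus), with 148 kb between them. The others are *Tbx1* (chr16:18580979-18590671, minus), *Tbx15* (chr3:99240381-99354259, plus), *Tbx18* (chr9:87702800-87731260, minus), *T* (chr17:8434423-8442496, plus) and *Eomes* (chr9:118478212-118486132, plus). Antisense transcripts overlap 4 of them, *Tbx3os1* the first 697 bp of *Tbx3*, *D030062O11Rik* the start of *Tbx18* by 1976 bp, *Gm43120* 6588 bp inside *Tbx15* and *Gm33460* 574 bp at the end of *Eomes*. Since the strand setting of the counting was not stated, reads over these stretches cannot be assigned with certainty. *Gm33460* and *Gm43120* reached at most 0.195 and 0.222 FPKM in any library (fragments scaled to transcript length and to library size), *D030062O11Rik* 1.70 and *Tbx3os1* 8.85.

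*T* and *Eomes* changed most between treatments, so the 250 bases in front of their RefSeq start sites are shown (GRCm38.p6, 5′ to 3′ on the gene's strand, chr17:8434173-8434422 and chr9:118477939-118478188). Capitals mark the letters CTTTG or its reverse complement CAAAG, the core recognised by the TCF/LEF factors of the WNT pathway, and AGGTGT, the core of the site bound by T-box proteins, both strands having been searched.

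*T*: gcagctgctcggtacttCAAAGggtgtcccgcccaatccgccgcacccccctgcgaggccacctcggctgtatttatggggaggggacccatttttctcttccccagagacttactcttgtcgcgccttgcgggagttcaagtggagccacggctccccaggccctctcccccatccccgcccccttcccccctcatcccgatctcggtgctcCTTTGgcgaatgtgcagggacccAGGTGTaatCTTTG

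*Eomes*: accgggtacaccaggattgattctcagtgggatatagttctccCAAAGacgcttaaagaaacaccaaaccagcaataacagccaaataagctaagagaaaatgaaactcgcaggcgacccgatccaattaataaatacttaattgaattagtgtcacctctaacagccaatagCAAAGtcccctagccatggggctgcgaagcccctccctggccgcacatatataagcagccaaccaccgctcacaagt

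The *T* window held the CTTTG core 3 times, with first letters 233, 37 and 5 bases before the start, and AGGTGT once, 14 bases before it. The *Eomes* window held the core 2 times, 207 and 77 bases before the start, and no AGGTGT. RefSeq promoters were available for 5 of the 9 genes, and for *Tbx2*, *Tbx3*, *Tbx5* and *Tbx15* none could be searched. Neither window of *Tbx1* nor those of *Tbx4* and *Tbx18* had the core, while 1 of the 2 *Tbx1* windows had a single AGGTGT. The *Tbx4* window (chr11:85896515-85896764) and the other *Tbx1* window (chr16:18588900-18589149) lay inside the gene bounds given above, not in front of them. Among all 32851 promoter windows of this length, 48.6% had at least 1 CTTTG or CAAAG, 15.7% at least 2 and 3.94% at least 3, and 11.8% had at least 1 AGGTGT. Such matches describe the letters only and are no binding sites by themselves.

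In controls the 9 genes spanned a wide range of levels, which are compared here per transcript length as FPKM over the 15 DMSO libraries of all times. *Tbx15* was highest, from 57.2 to 82.4 with a median of 69.3, followed by *Tbx5*, from 37.8 to 64.4 with a median of 51.7. These ranges overlapped across times. *Tbx18* (17.6 to 34.4, median 26.4), *Tbx2* (18.6 to 30.8, median 23.8) and *Tbx3* (14.3 to 23.0, median 17.4) came next and overlapped each other. *Tbx4* (2.15 to 3.95) and *Tbx1* (1.07 to 5.06) were about an order of magnitude lower and could not be separated by their ranges. *T* ran from 0.246 to 1.09, and *Eomes* from 0 to 1.54, listed at 0 in 4 of the 15 libraries. By median FPKM, *Tbx15* stood at the percentile 96.1 of 21681 protein-coding genes, *Tbx3* at 81.2, *Tbx4* at 56.1 and *T* at 43.6.

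**Figure D1:**
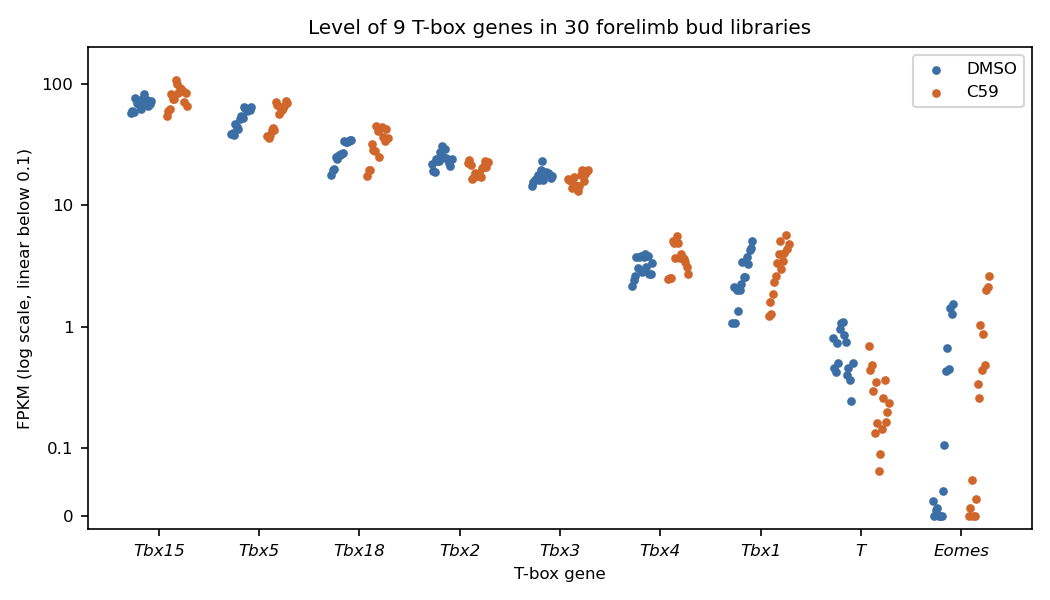
FPKM (vertical axis, logarithmic above 0.1 and linear below) of the 9 T-box genes (horizontal axis) in each of 30 libraries, DMSO in blue and C59 in orange, with all times together. *Tbx15* libraries lie between 54.1 and 107 and those of *T* between 0.0661 and 1.09, and only *Eomes* has libraries at 0.

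The forelimb gene exceeded the hindlimb gene in every library. The FPKM of *Tbx5* was 8.22 to 26.0 times that of *Tbx4* over the 30 libraries, with a median of 15.6. *Pitx1*, which specifies hindlimb identity, ranged from 0.105 to 4.63 CPM (counts scaled to the TMM-normalised library size) and rose 7.66-fold from DMSO 1 h to DMSO 24 h. *Hoxc10* and *Isl1*, listed with it, reached at most 2.57 and 4.47 CPM. *Isl1* rose 3.45-fold between the same control groups and fell after C59 at 12 h (log2 -1.39) and 18 h (-1.86). Markers of the other tissues were read as sums over lists of genes. The summed level of 10 limb mesenchyme genes was 1312 CPM or more in every 12 h library, and that of 12 ectoderm and apical ridge genes 313 CPM or more at 1 h. The heart marker *Nkx2-5* never exceeded 0.0781 CPM, while *Myh6* and *Myh7* of the same list reached 1.36 and 6.83 CPM.

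During the 24 h covered by the controls, 6 of the 9 genes changed between DMSO 1 h and DMSO 24 h (adjusted p under 0.05, edgeR), with 5 up and 1 down, against a background of 59.3% of all genes tested in that comparison, of which 30.1% rose and 29.2% fell. *Eomes* rose most, by 6.45 ± 0.41 on the log2 scale (SE; adjusted p = 7.70e-09). It went from 3, 0 and 1 counts in the 1 h libraries to 112, 115 and 150 counts at 24 h, so the fold rests on 4 counts at the early time, and *Eomes* passed the filter on low counts through the 24 h libraries alone. *Tbx1* rose 3.13-fold (log2 1.65 ± 0.15, adjusted p = 3.89e-07), from 4.24, 5.49 and 3.63 CPM to 12.5, 13.1 and 15.7 CPM. These 2 were beyond a log2 fold change of 1, as were 12% of all genes tested. *Tbx18* rose by 0.77 ± 0.05, *Tbx5* by 0.59 ± 0.04 and *Tbx15* by 0.16 ± 0.04. *T* fell by 0.86 on the log2 scale (SE 0.32, adjusted p = 0.0321), a call that was lost with DESeq2 and in 4 of 6 fits with 1 library left out (DMSO 1 h replicates 1 and 2, DMSO 24 h replicates 2 and 3), with values of -0.91 to -0.66. *Tbx2*, *Tbx3* and *Tbx4* did not pass, with log2 differences of 0.09 ± 0.06, 0.13 ± 0.06 and 0.13 ± 0.11.

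**Figure D2:**
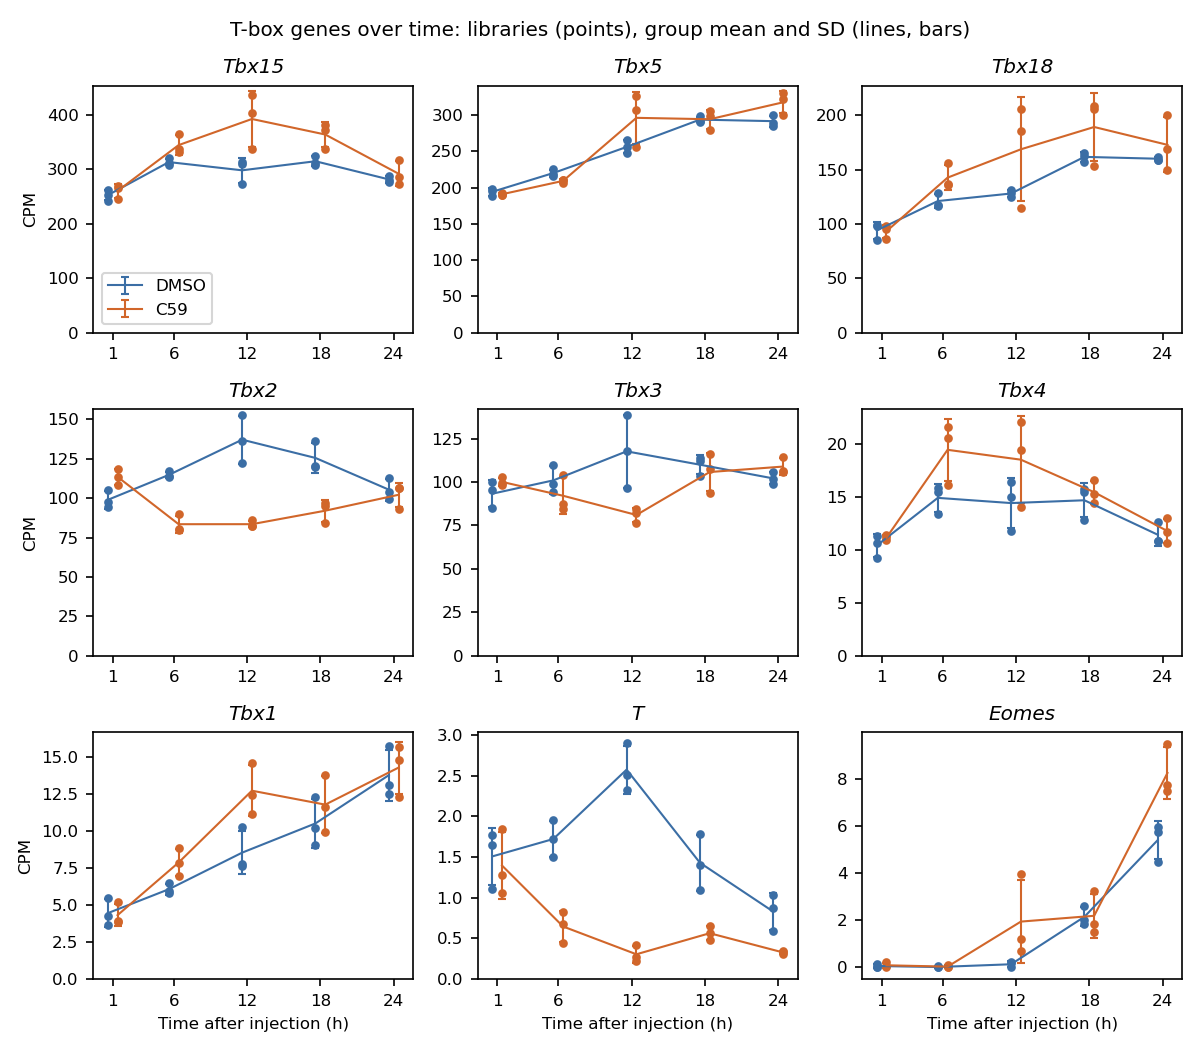
CPM (vertical axis, a separate scale for each gene) against hours after injection for 9 T-box genes, with points for libraries and lines and bars for the mean and SD of 3 libraries, DMSO in blue and C59 in orange. *Tbx2* is lower in C59 from 6 to 18 h and meets the controls at 24 h, *T* is lower from 6 h on, and *Eomes* rises late in both groups.

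The response to the drug was read first from *Axin2*, a feedback inhibitor and direct target of canonical WNT signaling. Its levels were 108, 118 and 104 CPM in DMSO and 29.0, 29.2 and 26.5 CPM in C59 at 6 h, so the groups were far apart. The log2 fold change was -1.97 ± 0.06 at that time (adjusted p = 7.55e-11). It was already -0.19 ± 0.04 after 1 h (adjusted p = 0.0282), and -1.45 ± 0.06 after 12 h (adjusted p = 1.40e-07). The later values, -0.16 ± 0.09 and -0.08 ± 0.07, did not pass. Of 8 canonical WNT targets fixed as a list, 8 fell at 6 h, when 11.4% of all genes did, and 7 at 12 h against 25.5%. At each of the other times 1 of the 8 fell.

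*Tbx2*, which represses cell cycle inhibitor genes such as *Cdkn1a*, was lower after C59 from 6 to 18 h. At 1 h its level was 105, 97.3 and 94.2 CPM in DMSO and 114, 119 and 108 CPM in C59, so that the C59 libraries were the higher ones without overlap. This difference of 0.20 ± 0.05 on the log2 scale missed the threshold (adjusted p = 0.058), although DESeq2, edgeR without a filter on low counts and the fit without DMSO replicate 1 called it (adjusted p = 0.0268 in the latter). With edgeR 0 of the 8 members tested at 1 h changed, where 2.75% of all genes did, and only *Tbx2* had an unadjusted p under 0.05 (0.00185). At 6 h the order was turned, with 113, 117 and 114 CPM in DMSO and 79.9, 80.7 and 89.7 CPM in C59, again without overlap. *Tbx2* fell by 0.46 on the log2 scale (SE 0.05, adjusted p = 5.37e-05). The change of the effect between 1 and 6 h was itself tested as an interaction and was -0.66 ± 0.08 (adjusted p = 1.68e-05), and *Tbx2* was the single member past that test, which 13% of genes passed.

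The decrease of *Tbx2* went on at 12 h, when DMSO libraries had 136, 153 and 122 CPM and C59 libraries 82.2, 82.3 and 85.8 CPM. The C59 means after 6 and 12 h were both 83.5 CPM, and the DMSO mean went from 115 ± 1.9 to 137 ± 15 CPM (SD, n = 3). The log2 fold change was -0.71 ± 0.07 (adjusted p = 1.76e-05), and its change since 6 h did not pass (-0.24 ± 0.09, adjusted p = 0.0827). At 18 h, 136, 121 and 119 CPM in DMSO stood against 83.9, 95.1 and 97.0 CPM in C59 (-0.43 ± 0.10, adjusted p = 0.0352). That call was lost when any single library other than C59 replicate 3 was left out, with adjusted p up to 0.126 and values from -0.46 to -0.37. At 24 h both groups overlapped at 93.3 to 113 CPM, with a log2 difference of -0.04 ± 0.07.

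*Tbx3*, the closest relative of *Tbx2* and a repressor acting in posterior digit formation, passed the test at 12 h. At 6 h it did not pass (-0.14 ± 0.08, adjusted p = 0.233), when 94.0, 110 and 99.0 CPM in DMSO and 84.5, 104 and 87.5 CPM in C59 overlapped. At 12 h it had 118, 139 and 96.4 CPM in DMSO and 82.2, 76.4 and 84.4 CPM in C59. The C59 libraries were all below the controls, and *Tbx3* fell by 0.54 on the log2 scale (SE 0.10, adjusted p = 0.00155). At 18 h (-0.04 ± 0.10) and 24 h (0.10 ± 0.06) the groups overlapped and no difference was called. Whether the effect on *Tbx3* changed between 6 and 12 h missed the threshold (-0.39 ± 0.14 on the log2 scale, adjusted p = 0.0746), but passed with DESeq2 (adjusted p = 0.0371). The change from 12 to 18 h likewise missed it (0.50 ± 0.15, adjusted p = 0.0579) and passed with DESeq2 (adjusted p = 0.0363), so a restriction to 12 h was not shown by edgeR. The 10 limb mesenchyme markers summed to 1968 to 2144 CPM in DMSO and 1312 to 1345 CPM in C59 at 12 h, with 9 of 10 down where 25.5% of all genes were, and their part in the results for *Tbx2* and *Tbx3* was not tested.

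*T* showed the largest relative decrease among the 9 genes at 6 h. Its levels were low, between 4 and 58 counts in a library. The 1 h libraries held 37, 36 and 31 counts in DMSO and 42, 25 and 20 counts in C59, equal to 1.65, 1.76 and 1.10 CPM against 1.85, 1.28 and 1.05 CPM, and the groups overlapped. At 6 h, 36, 33 and 33 counts in DMSO stood against 19, 9 and 15 counts in C59, and *T* fell by 1.39 on the log2 scale (SE 0.32, adjusted p = 0.00729). At 12 h the control libraries had 58, 45 and 41 counts and the C59 libraries 4, 10 and 6, equal to 2.32 CPM or more against 0.420 CPM or less. The log2 fold change was -3.02 ± 0.33 (adjusted p = 3.77e-05). Here *T* passed the filter on low counts through the DMSO libraries alone.

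The fall of *T* deepened between 6 and 12 h (interaction -1.62 ± 0.46, adjusted p = 0.0226) and became smaller between 12 and 18 h (1.74 ± 0.46, adjusted p = 0.0316). With 1 library left out, these calls were lost in 3 and 8 of 12 fits, with values of -1.94 to -1.43 and 1.55 to 2.06. At 18 h, 33, 41 and 26 counts in DMSO and 12, 13 and 10 counts in C59 did not overlap, with a log2 fold change of -1.28 ± 0.32 (adjusted p = 0.0444). Leaving out any of the 6 libraries ended that call, with adjusted p from 0.0636 to 0.151, while the fold change stayed between -1.48 and -1.10. At 24 h, 20, 15 and 22 counts in DMSO and 8, 8 and 7 counts in C59 gave -1.30 ± 0.39, which did not pass (adjusted p = 0.0656), and here too *T* passed the filter through the DMSO libraries alone. The libraries of the groups did not overlap at 6, 12, 18 or 24 h, but *T* passed the test only at the first 3 of these times. Beside it, the summed level of the 12 ectoderm and apical ridge markers was 323 to 360 CPM in DMSO and 399 to 514 CPM in C59 at 12 h. Of the 12 markers 6 were up, where 22% of all genes were, and 2, *Fgf8* and *Sp8*, were down, where 25.5% were. *Krt5*, the marker with the highest median level (101 CPM), rose by 0.79 on the log2 scale. The part of ectoderm and ridge cells in the result was not tested.

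*Eomes* moved in the opposite direction. At 1 and 6 h it had 0 to 4 counts in every library of both groups and was not tested. At 12 h the DMSO libraries had 0, 3 and 4 counts and the C59 libraries 22, 16 and 86 counts, without overlap. The log2 fold change was 3.88 ± 0.89 (adjusted p = 0.00457). It was 2.81 without C59 replicate 3, the library with 86 counts (adjusted p = 0.0100), and *Eomes* passed the filter through the C59 libraries alone. At 18 h, 34, 97 and 37 counts in DMSO and 32, 65 and 38 counts in C59 overlapped (0.02 ± 0.31), so the effect was smaller than at 12 h (interaction -3.86 ± 1.01, adjusted p = 0.0298, lost in 7 of 12 fits with 1 library left out). At 24 h the C59 libraries with 7.50, 7.76 and 9.49 CPM were again above the DMSO libraries with 5.76, 4.49 and 5.94 CPM, and *Eomes* rose by 0.62 ± 0.15 (adjusted p = 0.0330), a call that was lost when any single library other than C59 replicate 1 was left out (adjusted p up to 0.124).

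Markers of other cell types moved beside *Eomes*. Of 6 genes listed for heart muscle, *Tnnt2* rose at 12 h (1.55 ± 0.40), where 22% of all genes rose. *Myh7* rose at 18 h (2.08 ± 0.34, adjusted p = 0.00997), where 3.46% rose and *Eomes* did not differ. At 24 h *Tnnt2* (0.85 ± 0.13) and *Actn2* (1.33 ± 0.15) rose, where 2.88% of all genes did. Skeletal muscle also expresses *Tnnt2* and *Actn2*. The heart genes *Nkx2-5* and *Nppa* were at 0.0781 CPM or less in every library, while *Myh6* and *Myh7* reached 1.36 and 6.83 CPM. Macrophage markers (6 genes) summed to 24.8 to 29.0 CPM in DMSO and 40.3 to 43.7 CPM in C59 at 12 h, and blood vessel markers (6 genes) to 267 to 292 and 334 to 370 CPM. Markers of Schwann cell precursors and neural crest (6 genes) summed to 45.9 to 67.8 CPM in DMSO and 104 to 148 CPM in C59. Their part in the *Eomes* result was not tested.

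*Tbx5* stayed close to control levels. It had 226, 219 and 216 CPM in DMSO and 211, 206 and 211 CPM in C59 at 6 h. The C59 libraries were the lower ones without overlap, and the difference of -0.08 ± 0.04 did not pass. At 12 h, 247, 265 and 256 CPM in DMSO and 326, 307 and 256 CPM in C59 overlapped, since C59 replicate 3 lay within the controls. *Tbx5* rose by 0.21 ± 0.08 on the log2 scale (adjusted p = 0.0423), and by 0.32 without that library (adjusted p = 0.000621), while leaving out any of the other 5 libraries ended the call. The change of its effect from 6 to 12 h passed (0.30 ± 0.09, adjusted p = 0.0340), and was lost in 8 of 12 fits with 1 library left out, with values of 0.23 to 0.38. At 18 and 24 h the log2 differences were 0.02 ± 0.08 and 0.13 ± 0.06, and neither passed. At 24 h the C59 libraries were the higher ones without overlap. *Fgf10*, the gene that *Tbx5* activates in the early forelimb, fell by 0.34 on the log2 scale after 1 h, by 0.28 after 12 h and by 0.43 after 24 h. Its values of 0.21 ± 0.08 after 6 h and -0.47 ± 0.14 after 18 h did not pass.

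*Tbx4* was higher at 6 h, when 15.5, 13.4 and 15.9 CPM in DMSO faced 21.7, 20.6 and 16.2 CPM in C59 (0.38 ± 0.11, adjusted p = 0.0316). The nearest libraries had 15.9 and 16.2 CPM, and the call was lost without DMSO replicate 2 (adjusted p = 0.0761) or C59 replicate 1 (0.145) or 2 (0.101), and with FPKM values. At 12 h its groups overlapped (0.35 ± 0.17, adjusted p = 0.106). Of the neighbouring pairs, *Tbx2* fell and *Tbx4* rose at 6 h, and *Tbx3* fell and *Tbx5* rose at 12 h. As a ratio of FPKM within a library, *Tbx2* to *Tbx4* was 6.07 to 7.64 in DMSO and 3.21 to 4.99 in C59 at 6 h. At 24 h it was 7.18 to 8.13 in DMSO and 6.63 to 8.44 in C59, overlapping. *Tbx3* to *Tbx5* was 0.310 to 0.424 in DMSO and 0.197 to 0.254 in C59 at 12 h, and 0.273 to 0.296 and 0.268 to 0.277 at 24 h.

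**Figure D3:**
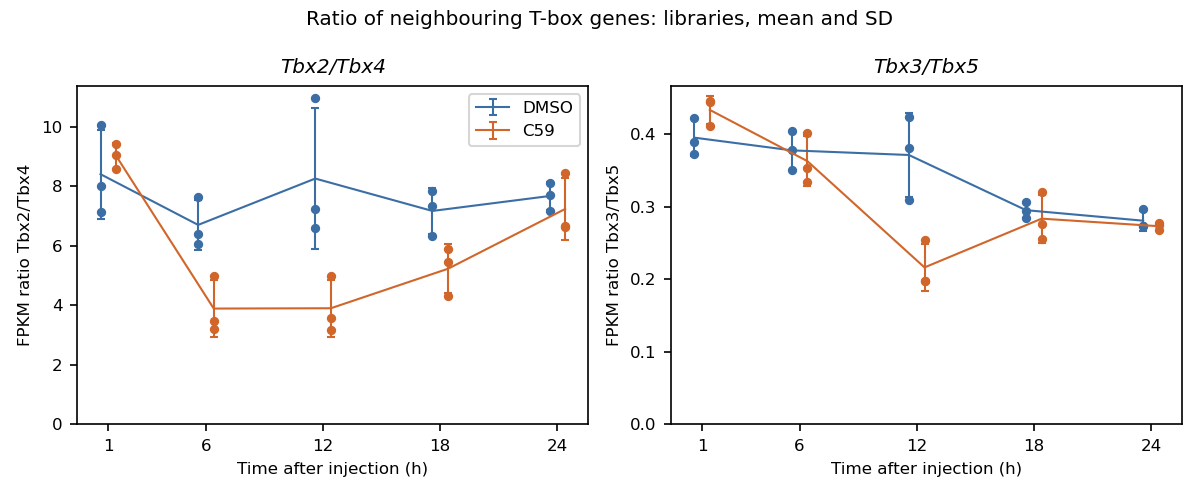
Ratio of FPKM within a library (vertical axes) for the neighbouring genes *Tbx2* and *Tbx4* (left) and *Tbx3* and *Tbx5* (right) against hours after injection, with points for libraries and lines and bars for the mean and SD of 3 libraries. The C59 mean of the first ratio is 3.89 at 6 h against 6.70 in DMSO, and that of the second is 0.216 at 12 h against 0.371.

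*Tbx15* and *Tbx18* were both higher after C59, with different spread. *Tbx15* had 310, 272 and 313 CPM in DMSO and 437, 404 and 338 CPM in C59 at 12 h, so the groups did not overlap. It rose by 0.40 ± 0.09 on the log2 scale (adjusted p = 0.00386). At 6 h (0.13 ± 0.05, adjusted p = 0.0666) and 18 h (0.23 ± 0.09, adjusted p = 0.154) it did not pass. All C59 libraries were above all DMSO libraries at both times, and the share of all genes so separated was not counted. *Tbx18* rose at 6 h from 118, 117 and 129 CPM in DMSO to 156, 136 and 136 CPM in C59 (0.23 ± 0.06, adjusted p = 0.0148), a call that was lost without C59 replicate 1 (0.17, adjusted p = 0.0874). At 12 h, 125, 128 and 131 CPM in DMSO faced 206, 186 and 115 CPM in C59. Replicates 1 and 2 were well above the controls and replicate 3 below them, so the difference of 0.40 ± 0.16 did not pass (adjusted p = 0.0671). Without replicate 3 it was 0.62 (adjusted p = 2.05e-05).

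The same C59 12 h library was the lowest of its group for *Tbx4*, *Tbx5*, *Tbx15* and *Tbx18* and the highest for *Tbx1*, *Tbx2*, *Tbx3* and *Eomes*. Without it, all 9 members passed the test at 12 h. With all libraries kept, 47.5% of all genes passed at that time, and the share in this fit was not counted. The library was singled out by the values of these same members, so the count describes that fit alone. At 18 h, C59 replicate 3 was the lowest of its group for *Tbx3*, *Tbx4*, *Tbx5*, *Tbx15* and *Tbx18*, and its counts differed most from its fellow replicates among all groups, with a chi-square per degree of freedom over genes of 39.9 and 47.6. Without that library *Tbx18* (0.37, adjusted p = 0.00422) and *Tbx15* (0.28, adjusted p = 0.0139) passed at 18 h. The share of all genes passing in that fit was not counted either. Between treatments, with all libraries kept, 4 of 7 markers of body wall, somite and nephric tissue were tested at 12 h. Of these 1 changed, where 47.5% of all genes did. It was *Pax1*, which fell by 0.79 on the log2 scale, where 25.5% of all genes fell. The other markers ran from -0.41 to 0.76 and did not pass. Their part in these results was not tested.

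*Tbx1* rose at 12 h, from 7.63, 10.2 and 7.75 CPM in DMSO to 11.2, 12.4 and 14.6 CPM in C59 without overlap (0.58 ± 0.15, adjusted p = 0.00773), and kept this call in every fit with 1 library left out. At 6 h its groups also lay apart, 5.94, 5.78 and 6.49 CPM against 6.95, 7.85 and 8.83 CPM, but the difference of 0.37 ± 0.14 did not pass (adjusted p = 0.0723). At 18 and 24 h the groups overlapped. The 8 genes listed as muscle progenitor markers summed to 156 to 173 CPM in DMSO and 150 to 190 CPM in C59 at 12 h, overlapping. This sum hides opposite moves, with 4 up and 4 down. *Myod1*, *Myog*, *Mymk* and *Des* rose by 0.55 to 1.56 on the log2 scale, where 22% of all genes rose. *Pax3*, *Lbx1*, *Met* and *Myf5* fell (-2.04 to -0.93), where 25.5% of all genes fell. The part of these 8 genes in the *Tbx1* result was not tested.

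Counted over all members, 4 of the 8 tested changed at 6 h (2 up, 2 down), when 19.6% of all genes did, 8.2% up and 11.4% down. At 12 h it was 7 of 9 (4 up, 3 down) against 47.5%, of which 22% up and 25.5% down. Of these 7, *T* passed the filter on low counts through the DMSO libraries alone and *Eomes* through the C59 libraries alone. At 18 h 2 of 9 fell, against 7.08% changed, 3.46% up and 3.62% down. At 24 h 1 of 9 rose, against 6.44% changed, 2.88% up and 3.56% down. The members tested had a median log2 fold change of 0.03 after 6 h, 0.35 after 12 h, 0.02 after 18 h and 0.06 after 24 h, where all genes tested had 0.01, 0.02, 0.00 and 0.00. Changes beyond a log2 fold change of 1, the additional limit used in the study, were found for *T* at 6 h, *T* and *Eomes* at 12 h and *T* at 18 h, beside 1.17%, 4.95% and 1.29% of all genes tested. No member did so at 1 or 24 h, when 0.283% and 0.819% of genes did. The effect differed between 6 and 12 h for 2 members (*T* and *Tbx5*) where 17.3% of genes passed, between 12 and 18 h for 2 (*T* and *Eomes*) where 8.49% passed, and between 18 and 24 h for 0 of 9 by edgeR (1, *Tbx2*, with DESeq2, and at an unadjusted p under 0.05 also only *Tbx2*), where 6.96% passed.

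**Figure D4:**
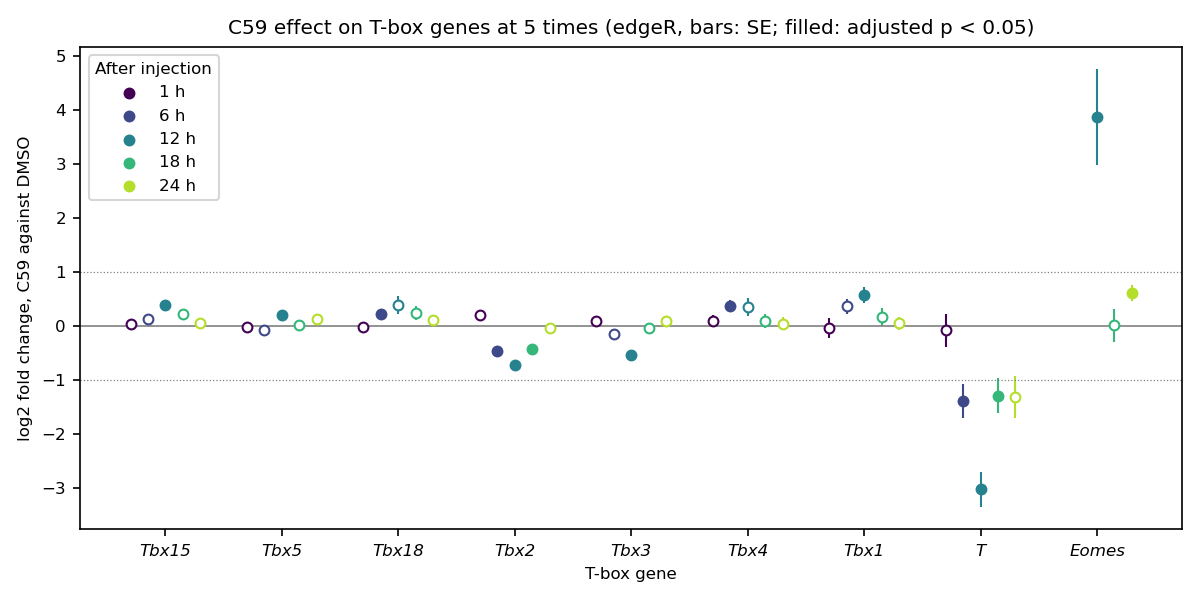
Log2 fold change of C59 against DMSO (vertical axis) for 9 T-box genes (horizontal axis) at 5 times, as fitted by edgeR, with bars for the SE, filled symbols for an adjusted p under 0.05 and dotted lines at 1 and -1. *T* reaches -3.02 and *Eomes* 3.88 at 12 h, all other genes stay within 1 of 0, and *Eomes* has no value at 1 and 6 h.

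The other family members had low levels in forelimb buds, *Mga* apart. Of 8 further T-box genes, *Mga*, a repressor with a T-box and a MYC-like domain, had a median of 7.72 FPKM in DMSO and did not pass the test at any time after C59. *Tbx6*, a gene of the presomitic mesoderm, had at most 0.440 FPKM in DMSO and did not pass either, with its largest value, 1.12 ± 0.45 on the log2 scale, at 12 h. *Tbx10*, *Tbx20*, *Tbx21* and *Tbr1* were not tested, having too few counts, and *Tbx22*, on the X chromosome, has no counts in the table and was not tested. Its FPKM were 0.437, 0.271 and 0.260 in DMSO and 0.0250, 0.0272 and 0.0364 in C59 at 18 h. At 24 h they were 0.486, 0.317 and 0.375 against 0.136, 0.113 and 0.249, so the C59 libraries were the lower ones without overlap at both times, while at 12 h the groups overlapped. *Tbx19*, a pituitary factor, had 74, 43 and 11 counts in the DMSO 6 h libraries and 0 in all 3 C59 libraries of that time. Pooled over the libraries of each group, against a floor of 3 counts, this is at least 46.6-fold lower in C59 (adjusted p = 0.000317). The bound leaves out the spread of the DMSO libraries, which ran from 0.649 to 3.07 CPM. *Tbx19* passed the filter through these DMSO libraries alone. Elsewhere it had 0 to 3 counts in a library, DMSO at 1, 12, 18 and 24 h included, so the difference rests on this single control group.

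T-box factors act within the signaling network of the limb bud, and 20 genes linked to them were counted as a list. Of these, 11 of 20 changed at 6 h (2 up, 9 down), where 8.2% of all genes rose and 11.4% fell. At 12 h it was 12 of the 19 tested (1 up, 11 down), against 22% up and 25.5% down. Fewer passed at the other times. After 1 h it was 2 of 20 (1 up, 1 down), where 2.75% of all genes changed. After 18 h it was 9 of 20 (2 up, 7 down), against 3.46% up and 3.62% down. After 24 h it was 6 of 19 (2 up, 4 down), against 2.88% up and 3.56% down. *Msx1*, a homeobox gene of the distal mesenchyme that responds to BMP, fell by 2.04 (log2) after 6 h and fell by 3.01 after 12 h. *Bmp4*, a BMP ligand reported to induce *Tbx2* in other tissues, fell by 1.03 and then by 1.25, with SE of 0.06 and 0.08. *Shh*, the ligand of the posterior organiser, had 11.6, 10.7 and 14.2 CPM in DMSO and 0.218, 0.0420 and 0.276 CPM in C59 at 12 h. Its log2 fold change was -6.09 ± 0.32, after -1.47 ± 0.11 at 6 h. The C59 levels of *Shh* at 12 h lie near the floor, so the size of that fold is imprecise. *Fgf8*, the main ridge FGF, had -1.59 ± 0.08 and -3.17 ± 0.20.

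*Fgf4*, another ridge ligand, fell by 3.41 on the log2 scale at 6 h (SE 0.52), from 29, 21 and 39 counts to 3, 1 and 5. *Wnt3*, an ectodermal WNT ligand, was the single list member to rise at 12 h (0.65 ± 0.12, adjusted p = 0.00154). *Cdkn1a*, which *TBX2* and *TBX3* are known to repress, fell by 0.38 on the log2 scale at 6 h (SE 0.10, adjusted p = 0.0133) and had -0.03 ± 0.12 at 12 h, when both repressor genes were lower. The median log2 fold change of the list was -0.21 at 6 h and -0.28 at 12 h.

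**Figure D5:**
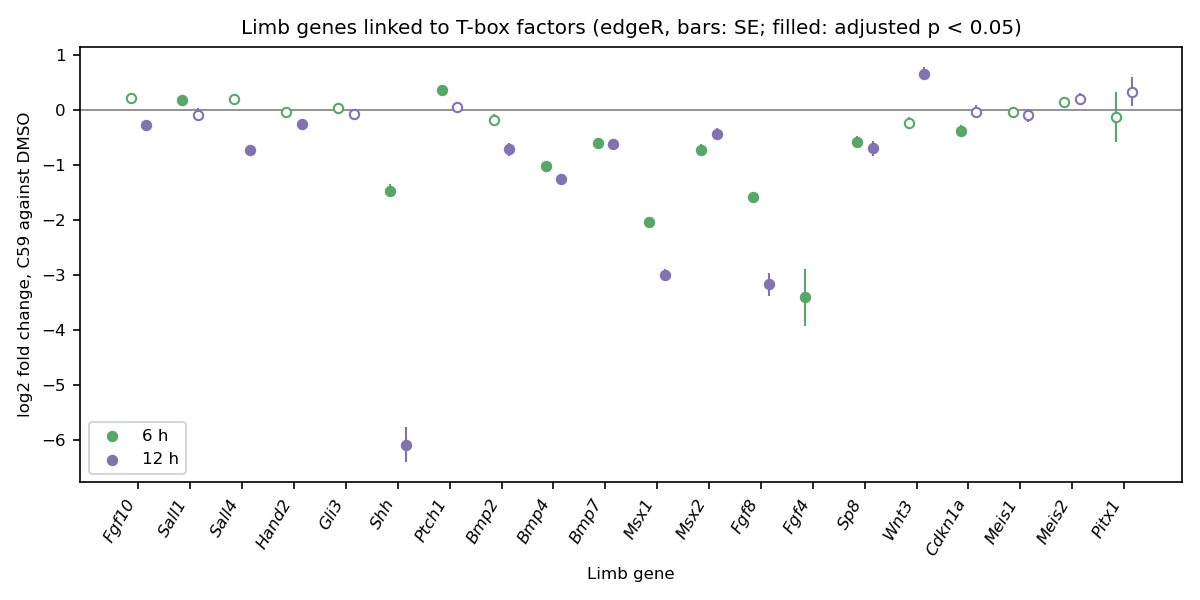
Log2 fold change of C59 against DMSO (vertical axis) at 6 h (green) and 12 h (purple) for 20 limb genes linked to T-box factors (horizontal axis), with bars for the SE and filled symbols for an adjusted p under 0.05. *Shh* reaches -6.09 and *Msx1* -3.01 at 12 h, *Wnt3* is the only filled symbol above 0 at that time, and *Fgf4* has no value at 12 h. The value of *Shh* at 12 h rests on C59 levels of 0.276 CPM or less.

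The genes whose log2 CPM ran most in parallel with each member were taken from 12541 protein-coding genes over the 30 libraries, which share treatments and developmental times, so the correlations are a description. *Tbx2* was nearest to *Bmp4* (Pearson r = 0.796) and the connexin gene *Gja3* (0.771), and *Tbx3* to *Tshz3* (0.761) and *Camkk2* (0.748). *Tbx5* followed *Dab2* (0.971) and *Ccdc80* (0.967), *Tbx4* followed *Tbx15* (0.873) and *Synpo* (0.859), and *Tbx15* followed *Osr2* (0.927) and *Nfatc2* (0.907). *Tbx18* was nearest to the forkhead genes *Foxc1* (0.928) and *Foxp2* (0.925), and *Tbx1* to *Islr* (0.961) and *Tgfb3* (0.959). *T* was nearest to *Setd1a* (0.849) and *Epha2* (0.843), and *Eomes* to the endothelial factor *Erg* (0.948) and the striated muscle gene *Tnnt2* (0.946).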

How the data were processed

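PolyA RNA of mouse forelimb buds was sequenced in 30 libraries, in 10 groups of 3 taken from the sample labels. The authors trimmed reads with cutadapt 1.16, mapped them to mm10 with STAR 2.7.0e and deposited raw fragment counts per gene, of autosomes only, which summed to 18188636 to 38974885 per library. The deposited FPKM table was made by the authors with Cufflinks 2.2.1, run as unstranded. Replicates were not pooled, and methods describe them as different embryos.

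Genes were named by GENCODE M21, which matched 50628 of 50833 counted genes. Protein-coding genes were tested by the quasi-likelihood F test of edgeR 4.0.16 (R 4.3.3) after TMM normalisation and filterByExpr (at least 10 counts, at least 15 in total), each time point on its own 6 libraries and interactions on 12. Between 13076 and 13675 genes were tested per time point, with two-sided tests and Benjamini-Hochberg adjustment over all of them. SE came from the F statistic. Where libraries of the groups are said not to overlap, the share of all genes so separated was not counted. CPM are counts over TMM-scaled library sizes. A floor of 3 counts over a group covers counting error alone, as no molecular identifiers were used. The script was tested on simulated data. Alternatives were DESeq2 1.42.0, other size factors and filters, all genes of the table, all 30 libraries in 1 fit, limma 3.58.1 on log2(FPKM + 1) and log2(FPKM + 0.1), a replicate block and leaving out each library. The members, gene lists and tests were chosen with earlier results of these data known. Named were the 9 members, listed genes beyond the fold limit at 6 or 12 h or extreme, overlapping or head-to-head genes, and the 2 most similar genes per member, others being chosen after their values were seen.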

Additional observations from a re-analysis of the deposited data

Results flagged for a closer look

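In all, 6 results were singled out because the effect of C59 differed between neighbouring times by a test of the difference itself (edgeR interaction contrast on 12 libraries). The effect on *Tbx2* moved by -0.66 on the log2 scale from 1 to 6 h, and leaving out each library in turn gave -0.72 to -0.63 with adjusted p of at most 0.000129. The effect on *Tbx5* moved by 0.30 from 6 to 12 h, and 8 of 12 fits with 1 library left out lost the call. The effect on *T* moved by -1.62 from 6 to 12 h, with 3 of 12 such fits losing the call, and by 1.74 from 12 to 18 h, with 8 of 12 losing it. The effect on *Eomes* moved by -3.86 from 12 to 18 h, with 7 of 12 losing it. The effect on *Tbx19* differed between 1 and 6 h with an adjusted p of 0.0492, which rests on 3 DMSO libraries with 74, 43 and 11 counts. No group was large enough for a test of single outlying libraries.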

How the results depend on the processing

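Direction held in every alternative for all values that passed the test or exceeded their SE, and 50 values within 1 SE of 0 that never passed changed sign. Counts of members changed moved as follows. With 1 library left out, the count was 0 to 1 at 1 h and 2 to 4 at 6 h, then 6 to 9 at 12 h and 0 to 3 at 18 h, and 0 to 1 at 24 h. Beyond the fold limit at 18 h it was 0 in all such fits. For the changes of the effect it was 1 to 2 from 1 to 6 h, 0 to 4 from 6 to 12 h, 0 to 2 from 12 to 18 h and 0 to 1 from 18 to 24 h. DESeq2 gave 1 at 1 h and 1 from 18 to 24 h, and no filter gave 1 at 1 h. With upper-quartile factors or all genes of the table, 1 member changed at 18 h, and with all genes 0 were beyond the fold limit there. Fitting all 30 libraries together gave 2 at 6 h, 2 from 1 to 6 h, 1 from 18 to 24 h and 1 beyond the fold limit at 24 h (*T*). A mean of at least 1 CPM gave 2 from 1 to 6 h. On log2(FPKM + 1), which shrinks low genes, 0 were beyond the fold limit at 6, 12 and 18 h, 0 changed at 18 h, and 1 changed from 6 to 12 h and 1 from 12 to 18 h. On log2(FPKM + 0.1), 0 changed and 0 were beyond the fold limit at 18 h, and 1 changed from 12 to 18 h. Dropping the fold limit gives 4, 7, 2 and 1 members after 6, 12, 18 and 24 h by construction. Other causes were not tested.

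No pairing by replicate number was seen, as 1 of 15 pairs of same-numbered libraries correlated above 0.1 (-0.248 to 0.147). Pairs with different numbers were not compared, so this does not show that the libraries were unpaired. With the replicate number as a block, 0 members changed and 0 were beyond the fold limit at 18 h, with adjusted p of 0.109 for *Tbx2* and 0.0846 for *T*, and no other count of members moved by over 1.5 times, although *Tbx3* passed from 6 to 12 h and *T* no longer passed between DMSO 1 and 24 h. Precision for *T* and *Eomes* is limited by their counts, at most 58 and 200 in a library.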

Other observations

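Non-coding neighbours of the T-box genes were measured in the FPKM table and enter no comparison above. *Tbx3os1*, antisense to *Tbx3*, had 1.93 ± 0.39 FPKM in DMSO at 1 h and 6.94 ± 0.94 FPKM at 24 h (SD, n = 3), while *Tbx3* itself did not pass the test between these times. At 12 h *Tbx3os1* had 3.69 ± 0.76 FPKM in DMSO and 3.94 ± 1.1 FPKM in C59, overlapping groups, at the time when *Tbx3* fell. *Gm43050*, which starts 748 bp from the *Tbx5* start on the other strand, had 3.35 to 12.1 FPKM over the 30 libraries, and *2610027K06Rik*, 328 bp from the *Tbx2* start, 0.282 to 1.15 FPKM. These values were not tested.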
